A study of Mus musculus with 6 samples.

Results

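Oncofetal genes are active in the embryo, fall silent in most tissues after birth and return in many tumors. The genes examined here were *Igf2bp1*, *Igf2bp2*, *Igf2bp3*, *Lin28a*, *Lin28b*, *Hmga1* and *Hmga2*, taken as the rows of the deposited count table whose Ensembl identifiers carry these symbols in the GENCODE M21 annotation, which gave 7 of the 54532 genes listed. Of these 7 genes, *Igf2bp1* was the only one that passed the test in any comparison. Its level was 30.9-fold higher in YAP5SA OE (overexpressing) CMs (cardiomyocytes) than in GFP CMs and 21.4-fold higher than in YAP6SA OE CMs. *Igf2bp2*, *Igf2bp3*, *Lin28b* and *Hmga1* were measured in every library and passed in none of the 3 comparisons, *Lin28a* had no read, and *Hmga2* had at most 5 reads in a library.

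The RNA came from wild-type ICR mice that were given 1e+11 viral genomes of AAV9 under the skin at 6 d of age (P6). The virus carried GFP (the control), YAP5SA or YAP6SA behind the cardiac troponin T (cTnT) promoter, which directs expression to CMs, and all 3 groups therefore share the viral infection and differ in the cargo. YAP5SA is a YAP whose LATS kinase sites were changed from serine to alanine, which keeps the protein active, and YAP6SA has a further such change that weakens its binding to the TEAD transcription factors. Hearts were taken at P9, 3 d after injection, CM nuclei were pulled down with an antibody to PCM-1, and their poly-A RNA was sequenced without strand information, with 2 libraries per group, 1 in each of 2 batches. The labels give 2 hearts per virus, and each library was taken as 1 heart, which no label states outright. The p-values below rest on the spread left after a term for batch, pooled over the 3 groups. Because the RNA is nuclear, neither cytoplasmic RNA nor protein was measured, and the share of nuclei that received a virus is not given in the sources used here. The mouse *Yap1* gene did not show the added YAP and so does not check the virus labels. It stood at 139 and 129 CPM (counts scaled to a library of 1e+06 reads) for GFP, at 122 and 130 for YAP6SA, and at 138 and 102 for YAP5SA, with an FDR (Benjamini-Hochberg adjusted p) of 0.495 for YAP5SA against GFP and 0.952 for YAP6SA against GFP, and the species of the YAP coding sequence is not given in the sources used here.

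The IGF2BP proteins bind messenger RNAs, many of them carrying the m6A mark, and steady, transport or hold back translation of them. The LIN28 proteins block the maturation of let-7, a family of microRNAs that builds up as tissues differentiate, and *Lin28b*, *Hmga2* and *Igf2bp1* are in turn well-known let-7 targets. The HMGA proteins are small chromatin proteins that bind AT-rich DNA and bend it. These families are thus joined in a fetal growth circuit in which LIN28 and let-7 oppose each other.

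The sequences that join these genes are the let-7 seed and its matches. RefSeq (GRCm38.p6) lists 11 mature mouse microRNA names whose bases 2 to 8 are GAGGUAG. Members of this seed family are shown with the seed in capitals, chosen to show that they share the seed and differ in the bases after it:
let-7a-5p: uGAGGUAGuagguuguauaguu
let-7c-5p: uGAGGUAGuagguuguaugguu
let-7i-5p: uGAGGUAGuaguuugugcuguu
miR-98-5p: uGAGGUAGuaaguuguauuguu

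The longest annotated 3′UTR (untranslated region) of each of the 7 genes was searched on its own strand for CTACCTCA (8mer), CTACCTC not followed by A (7mer-m8) and TACCTCA not preceded by C (7mer-A1). All 7 genes held at least 1 match and 6 of them held an 8mer, where 3.83% of 12200 tested genes with an annotated 3′UTR held an 8mer and 17.4% held a match of any kind. The 3′UTR of *Igf2bp1*, 6337 bases long, held 5 matches, 3 of them 8mers. Those of *Lin28b* (4445 bases) and *Hmga2* (3014 bases) held 5 and 7 matches with 1 8mer each. *Igf2bp2* and *Lin28a* held 2 matches each, and *Igf2bp3* and *Hmga1* held 1 each. These 3′UTRs are long beside the median of 1198 bases over the genes searched, other than that of *Hmga1* (1183 bases). A match is a string in the annotation, and whether let-7 acted on any of these genes was not tested, since poly-A libraries do not measure mature microRNAs.

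For each gene other than *Igf2bp1*, 1 match is shown in a window of 24 bases, in GRCm38 coordinates and with the matching bases in capitals. The match shown is an 8mer, for *Lin28a* 1 of its 2, except for *Hmga1*, which held no 8mer. The other matches of these genes are not shown. *Igf2bp1* is given in full for its 8mers, because it is the gene whose level differed:
Igf2bp1, chr11:95961776-95961799, minus strand: ctgtgcgaagtaaaCTACCTCAag
Igf2bp1, chr11:95959355-95959378, minus strand: agcagtgctattaaCTACCTCAgc
Igf2bp1, chr11:95958761-95958784, minus strand: tataaatggatgaaCTACCTCAgt
Igf2bp2, chr16:22059471-22059494, minus strand: cacacaaataaaagCTACCTCAgg
Igf2bp3, chr6:49086785-49086808, minus strand: gcatttttactcaaCTACCTCAgg
Lin28a, chr4:134005187-134005210, minus strand: cacagcctgttgaaCTACCTCAtt
Lin28b, chr10:45381020-45381043, minus strand: cccgggcgggaagtCTACCTCAtg
Hmga1, chr17:27563278-27563301, plus strand: cctctgttcacaaaCTACCTCtgg
Hmga2, chr10:120364222-120364245, minus strand: ccgacattcaatttCTACCTCAgc

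*Igf2bp1* (ENSMUSG00000013415), on the minus strand of chromosome 11 at chr11:95957163-96005940, encodes the family member best known from fetal tissue and tumors. Its counts were 22 and 32 in GFP CMs, 29 and 55 in YAP6SA OE CMs and 547 and 1143 in YAP5SA OE CMs, with the batch 1 library first in each pair. After TMM scaling for library size the level was 1.15 and 2.08 CPM for the GFP hearts, 1.47 and 3.32 for those given YAP6SA, and 36.1 and 63.8 for those given YAP5SA. Both YAP5SA libraries lay above all others (31.2% of all genes tested lay above GFP without overlap, and 28.6% above YAP6SA), the GFP and YAP6SA libraries overlapped, and the batch 2 library was the higher one in each group. The group means were 1.62 ± 0.658, 2.40 ± 1.31 and 49.96 ± 19.6 CPM (SD, n = 2 each).

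The log2 fold change of *Igf2bp1* in YAP5SA against GFP was 4.95 (SE 0.27, 95% interval 4.36 to 5.55, FDR 1.77e-05 in edgeR's quasi-likelihood test). The batches taken alone, as differences of log2(CPM + 0.1), gave 4.85 (batch 1) and 4.87 (batch 2). Against YAP6SA the log2 fold change was 4.42 (SE 0.25, interval 3.85 to 4.99, FDR 3.14e-05), with 4.53 and 4.22 within the batches. By log2 fold change, from the highest, *Igf2bp1* ranked 54 and 60 of the 13323 genes tested in these comparisons. Of all genes tested, 12.8% passed as higher in YAP5SA against GFP and 9% in YAP5SA against YAP6SA, and 1 of the 5 oncofetal genes tested, *Igf2bp1*, did so in each. As lower, 9.18% and 5.68% of all genes passed, and 0 of the 5 did. In this fit 0 of the 5 were lower at an unadjusted p under 0.05. The likelihood ratio test, DESeq2 and limma-voom also called 0 as lower. With no filter on low counts, the quasi-likelihood test gave *Hmga1* an unadjusted p of 0.0448 for YAP5SA against GFP. Its log2 fold change there was -1.11 (interval -2.19 to -0.026, FDR 0.225). For YAP6SA against GFP the log2 fold change of *Igf2bp1* was 0.53 (SE 0.29, interval -0.11 to 1.17, FDR 0.854). The interval holds no change as well as a rise of up to 1.17 on the log2 scale, and its upper end lies below the lower end of the interval for YAP5SA against GFP. The difference between the variants is the YAP5SA against YAP6SA comparison above.

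**Figure D1:**
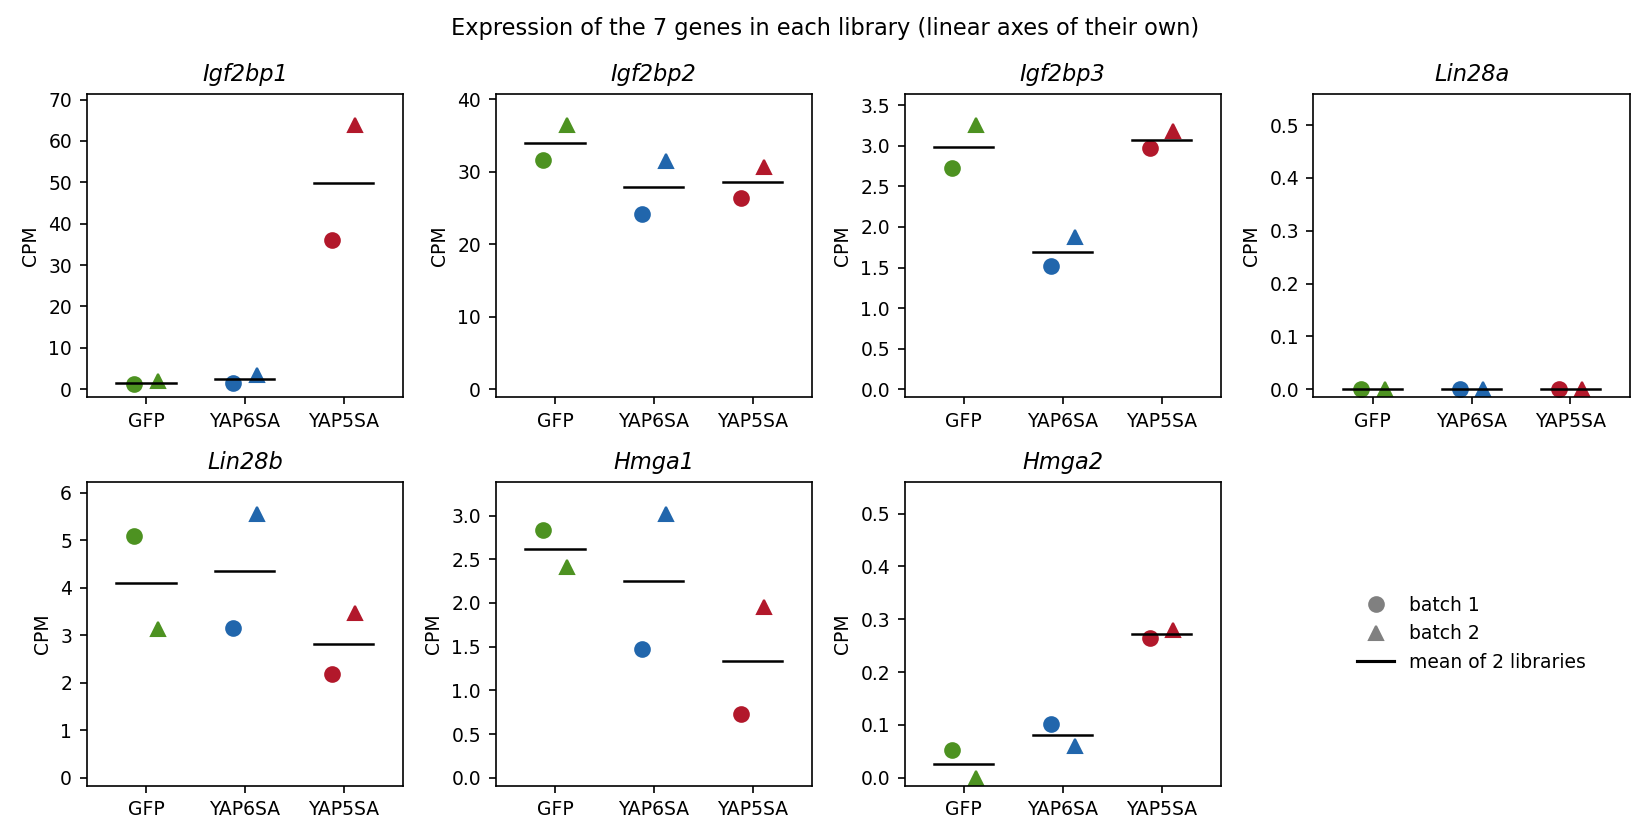
Level of each of the 7 oncofetal genes in each of the 6 libraries in CPM, with 1 panel per gene on a linear axis of its own, circles for batch 1, triangles for batch 2 and a line at the mean of the 2 libraries of a group. *Igf2bp1* stands at 36.1 and 63.8 CPM in the YAP5SA libraries against 1.15 to 3.32 CPM in the other 4, *Lin28a* is at 0 in all 6, and *Hmga2* reaches at most 0.279 CPM.

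The reads of *Igf2bp1* could be told from those of other genes over most of its exons. None of its 9674 exonic stretches of 100 bases occurs in another annotated transcript. The genes that overlap its exons, *Mir3063* (92 shared bases) and *Gm29202* (43), had 0 counts in every library. Reads on shared bases were ambiguous and counted for neither gene. *Mir3063* lies within an *Igf2bp1* exon, so its counts of 0 do not show that it had no reads. Of 54 annotated genes within 500 kb of *Igf2bp1*, 8 were expressed enough to test. Among these, 2 were higher and 0 lower in YAP5SA OE CMs against GFP, with a median log2 fold change of 0.05, beside 12.8% higher, 9.18% lower and a median of 0.00 over all genes tested. The 2 genes, named here after their values were seen, were *Ube2z* (0.62, FDR 0.0326) and *Gngt2* (1.36, FDR 0.0223).

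*Igf2bp2* (ENSMUSG00000033581, chr16:22059009-22163299, minus strand) is the paralog that stays on in many adult tissues. Its counts were 604 and 560 in GFP, 477 and 522 in YAP6SA and 401 and 549 in YAP5SA, or 31.6 and 36.5, 24.2 and 31.5, and 26.5 and 30.7 CPM. Both YAP variants lay below the GFP libraries, YAP6SA in batch 2 only just, and overlapped each other. Among all genes tested 29.8% lay below GFP without overlap in YAP5SA and 17% in YAP6SA. No comparison of *Igf2bp2* passed, with a log2 fold change of -0.25 for YAP5SA against GFP (interval -0.65 to 0.15, FDR 0.341), -0.30 for YAP6SA against GFP (interval -0.70 to 0.10, FDR 0.876) and 0.04 for YAP5SA against YAP6SA (interval -0.36 to 0.44, FDR 0.898). These were the narrowest intervals among the 5 genes tested, and a change of the size of that of *Igf2bp1* lies far outside them.

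*Igf2bp3* (ENSMUSG00000029814, chr6:49085223-49214957, minus strand), a paralog much used as a tumor marker, was low. Its counts were 52 and 50 in GFP, 30 and 31 in YAP6SA and 45 and 57 in YAP5SA, which are 2.72 and 3.25, 1.52 and 1.87, and 2.97 and 3.18 CPM. The YAP6SA libraries were the lowest and did not overlap either other group, while YAP5SA lay within the GFP range. None of these passed, with a log2 fold change of -0.82 for YAP6SA against GFP (interval -1.81 to 0.18, FDR 0.863), 0.86 for YAP5SA against YAP6SA (interval -0.13 to 1.86, FDR 0.221) and 0.05 for YAP5SA against GFP (interval -0.92 to 1.01, FDR 0.953). Without overlap, 17% of all genes tested lay lower in YAP6SA than in GFP and 28.6% higher in YAP5SA than in YAP6SA. *Igf2bp3* shares 1529 exonic bases with *Malsu1* on the opposite strand, which holds 17.5% of its stretches of 100 bases, and reads there cannot be given to either gene without strand.

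Per length, the make-up of the family differed between the groups. In RPKM (the CPM divided by the exon length in kilobases), *Igf2bp1* made up 2.52% and 3.88% of the summed level of the 3 *Igf2bp* genes with GFP, 4.21% and 7.10% with YAP6SA, and 48.6% and 59.3% with YAP5SA. *Igf2bp2* made up 90.4% and 88.9% in GFP, 90.6% and 88.2% in YAP6SA and 46.6% and 37.2% in YAP5SA. *Igf2bp2* was thus the main family member in the 4 GFP and YAP6SA libraries, and in the YAP5SA libraries the level of *Igf2bp1* was above it, by little in batch 1 (3.73 against 3.58 RPKM) and by more in batch 2 (6.59 against 4.14 RPKM). The summed level was 5.13 ± 0.573 RPKM in GFP, 4.22 ± 0.869 in YAP6SA and 9.40 ± 2.44 in YAP5SA (SD, n = 2 each). These shares follow from the values above and were not tested separately. The *Igf2bp3* level can be too low, since reads shared with *Malsu1* were not counted while its full exon length was used.

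**Figure D2:**
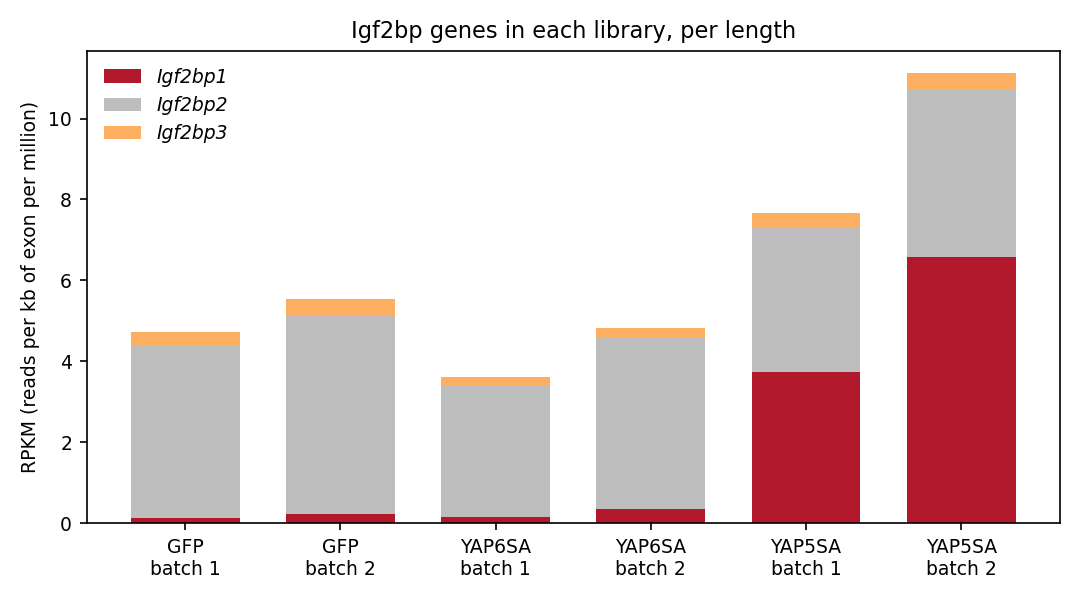
Stacked level of *Igf2bp1*, *Igf2bp2* and *Igf2bp3* in each library, in RPKM, with 1 bar per library starting at 0. *Igf2bp1* fills 2.52% to 7.10% of the bar with GFP or YAP6SA and 48.6% and 59.3% with YAP5SA, while the *Igf2bp2* segment stays between 3.27 and 4.92 RPKM.

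*Lin28a* (ENSMUSG00000050966, chr4:134003330-134018841, minus strand), the LIN28 protein of pluripotent cells, had 0 counts in all 6 libraries. A count of 0 allows up to 3 counts in a library, or 0.153 to 0.206 CPM at these depths of 14552847 to 19615627 gene counts, and this limit covers counting error only. *Lin28b* (ENSMUSG00000063804, chr10:45376620-45486395, minus strand), its paralog in fetal tissues, had 97 and 48 counts in GFP, 62 and 92 in YAP6SA and 33 and 62 in YAP5SA. In CPM these were 5.08 and 3.12, 3.14 and 5.56, and 2.18 and 3.46. The 3 groups overlapped, and the order of the batches was not the same in each group. The log2 fold change of *Lin28b* was -0.59 for YAP5SA against GFP (interval -1.66 to 0.47, FDR 0.406), 0.02 for YAP6SA against GFP (interval -1.04 to 1.07, FDR 0.998) and -0.61 for YAP5SA against YAP6SA (interval -1.66 to 0.44, FDR 0.420). For YAP5SA against GFP it was -1.19 in batch 1 and 0.14 in batch 2, so that the direction was not the same in both. Each interval holds no change as well as falls and rises up to the sizes at its ends.

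*Hmga1* (ENSMUSG00000046711, chr17:27556497-27563674, plus strand) had 54 and 37 counts in GFP, 29 and 50 in YAP6SA and 11 and 35 in YAP5SA. In CPM these were 2.83 and 2.41, 1.47 and 3.02, and 0.726 and 1.95. The YAP5SA libraries lay below the GFP libraries, as did 29.8% of all genes tested, and the YAP6SA libraries spanned the GFP range. In YAP5SA against GFP its log2 fold change was -1.10 (interval -2.34 to 0.14, FDR 0.184). Batch 1 alone gave -1.83 and batch 2 alone -0.29. The value was -0.35 for YAP6SA against GFP (interval -1.53 to 0.83, FDR 0.947) and -0.75 for YAP5SA against YAP6SA (interval -1.97 to 0.48, FDR 0.395).

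*Hmga1* reads are uncertain, because 40.1% of its stretches of 100 bases also occur in *Hmga1b* (ENSMUSG00000078249), a near copy on chromosome 11, and reads that mapped to several places were left out of the gene counts. *Hmga1b* itself had more reads, 185 and 150 in GFP, 145 and 122 in YAP6SA and 105 and 166 in YAP5SA. Its log2 fold changes were -0.27 (FDR 0.531), -0.40 (FDR 0.905) and 0.13 (FDR 0.805) in the same order of comparisons. With the counts of both genes summed, a calculation added after the data had been seen, the log2 fold change for YAP5SA against GFP was -0.41 (FDR 0.308), smaller in size than for *Hmga1* alone. *Hmga1* also shares 102 exonic bases with *AI413582* on the opposite strand, and reads there cannot be given to either gene without strand. *AI413582* had 155 and 164 counts in GFP, 182 and 112 in YAP6SA and 75 and 81 in YAP5SA.

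*Hmga2* (ENSMUSG00000056758, chr10:120361275-120476469, minus strand), the HMGA gene most closely tied to let-7 and to fetal growth, was near the limit of detection. It had 1 and 0 counts in GFP, 2 and 1 in YAP6SA and 4 and 5 in YAP5SA. The YAP5SA libraries were above 3 counts and the other 4 were below. Summed over the libraries of a group, 9 counts in YAP5SA against 1 in GFP is a ratio of 9.38 with an exact 95% counting interval of 1.30 to 411, and 9 against 3 in YAP6SA is a ratio of 3.29 with an interval of 0.821 to 18.9. These intervals cover counting error only and not the spread between hearts. *Hmga2* and *Lin28a* did not pass the filter on low counts. In the fit with no filter, where 7.27% of genes passed as higher in YAP5SA against GFP and 5.81% against YAP6SA, *Hmga2* had an FDR of 0.805 for YAP5SA against GFP and 0.912 for YAP5SA against YAP6SA.

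**Figure D3:**
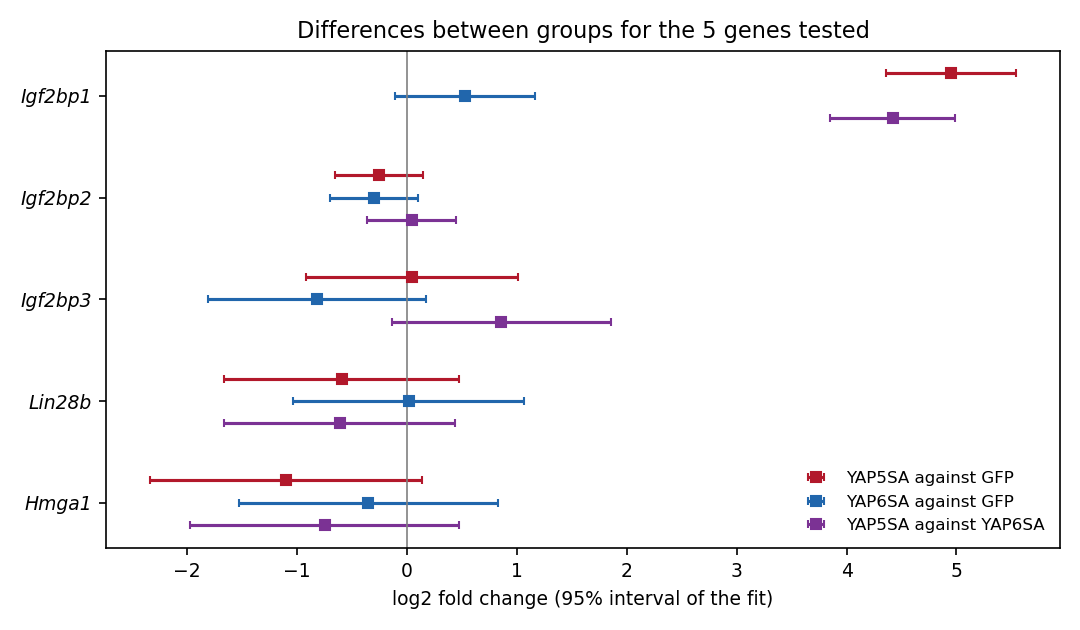
log2 fold change of the 5 genes tested, with the 95% interval of the edgeR fit as the bar, for YAP5SA against GFP, YAP6SA against GFP and YAP5SA against YAP6SA. The intervals of *Igf2bp1* for YAP5SA, 4.36 to 5.55 against GFP and 3.85 to 4.99 against YAP6SA, lie clear of 0, and all others include 0.

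In all, 5 of the 7 genes were tested. Against GFP, 1 was higher and 0 lower in YAP5SA, and 0 passed in YAP6SA, where 6 of the 13323 genes tested (0.045%) passed. For YAP6SA against GFP 0 of the 5 had an unadjusted p under 0.05, and the likelihood ratio test of edgeR, DESeq2 and limma-voom also called 0. The median log2 fold change over the 5 genes was -0.25 for YAP5SA against GFP, -0.30 for YAP6SA against GFP and 0.04 for YAP5SA against YAP6SA, where the medians over all genes tested were 0.00, 0.00 and -0.01. Both comparisons with GFP share the GFP libraries.

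Within a group the genes spanned a wide range per length. In GFP the order was *Igf2bp2* (4.60 ± 0.459 RPKM), *Hmga1* (1.23 ± 0.140), *Lin28b* (0.453 ± 0.153), *Igf2bp3* (0.366 ± 0.0460), *Igf2bp1* (0.167 ± 0.0680), *Hmga2* (0.00387) and *Lin28a* (0). Neighbors in this order were separate in both libraries except *Lin28b* and *Igf2bp3*, whose values overlapped, and *Hmga2* and *Lin28a*, both under the limit that 0 counts allows. *Hmga1* and *Igf2bp3* can be too low in this order. Reads they share with *Hmga1b*, *AI413582* or *Malsu1* were not counted, while their full exon lengths were used. In YAP5SA *Igf2bp1* stood first (5.16 ± 2.02 RPKM), overlapping *Igf2bp2* (3.86 ± 0.400). Below them came *Hmga1* (0.631 ± 0.409), *Igf2bp3* (0.377 ± 0.0184) and *Lin28b* (0.311 ± 0.1001), which overlapped one another.

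The genes whose pattern over the 6 libraries was most like that of *Igf2bp1* were sought by the smallest root mean square difference of log2(CPM + 0.1) after each gene was centred on its own mean. These were *2810433D01Rik* (0.23), *Adcy1* (0.23) and *Gm35330* (0.25). *Adcy1*, an adenylyl cyclase that makes cyclic AMP, had 142 and 208 counts in GFP, 189 and 238 in YAP6SA and 2576 and 5178 in YAP5SA. *2810433D01Rik* rose from at most 3 counts to 47 and 89, and *Gm35330* from at most 24 to 137 and 372. Each was low in the same 4 libraries, and higher in batch 2 than in batch 1 of YAP5SA.

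The let-7 pathway around these genes was described with lists that together held 95 genes, of which 78 were tested. Over all genes tested, 22% passed in either direction for YAP5SA against GFP, 0.045% for YAP6SA against GFP and 14.7% for YAP5SA against YAP6SA. Of the 12 tested genes that process let-7 or work with LIN28, 0 passed in any comparison by the edgeR quasi-likelihood test. At an unadjusted p under 0.05 there was 1 such gene for YAP5SA against GFP, 0 for YAP6SA against GFP and 1 for YAP5SA against YAP6SA. The likelihood ratio test of edgeR called 1, 0 and 1, DESeq2 called 0, 0 and 0, limma-voom called 0, 0 and 1, and the fit with no filter called 0, 0 and 1. The list includes *Dis3l2*, the nuclease that degrades let-7 precursors tailed after LIN28 binding (log2 fold change 0.09, FDR 0.841 for YAP5SA against GFP). *Trim71*, a ubiquitin ligase of the same pathway that is also a let-7 target, was not tested, with 1 count in 1 GFP library and 0 in the other 5.

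A list of 14 let-7 entries held host transcripts and the microRNA genes themselves, whose mature products poly-A libraries do not measure. Of these entries 2 were expressed enough to test, both of them host transcripts. *Mir99ahg*, a long non-coding RNA (chr16:77236317-77773427, plus strand), passed. Its counts were 2930 and 2769 in GFP, 1397 and 2011 in YAP6SA and 8915 and 18300 in YAP5SA. The YAP5SA libraries were the highest and the YAP6SA libraries the lowest, without overlap. Among all genes tested, 31.2% lay higher without overlap in YAP5SA than in GFP and 28.6% higher than in YAP6SA. In YAP6SA, 17% lay lower than in GFP. The log2 fold change was 2.21 for YAP5SA against GFP (FDR 0.000187), 3.06 against YAP6SA (FDR 4.52e-05) and -0.85 for YAP6SA against GFP (FDR 0.309). This last difference was called lower by the likelihood ratio test, by DESeq2, with no filter, in the fit of 4 libraries and without either YAP5SA replicate, and was not called in the other fits. The other host tested, *Lncppara*, had a log2 fold change of 0.53 (FDR 0.443) for YAP5SA against GFP.

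*Mir99ahg* is shown because its span holds a let-7 gene as well as 2 other microRNA genes, on the same strand. The 5p arms, with bases 2 to 8 in capitals, are
miR-99a-5p, chr16:77598940-77598961: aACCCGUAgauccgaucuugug
let-7c-5p, chr16:77599672-77599693: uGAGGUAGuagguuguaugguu
miR-125b-5p, chr16:77646279-77646300: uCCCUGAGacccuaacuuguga
Of these the let-7c arm has the seed whose matches are shown above for the *Igf2bp1* 3′UTR, and *Mir99ahg* and *Igf2bp1* were both higher in YAP5SA. The counts for *Mir99ahg* are of the long RNA, and the levels of the mature microRNAs were not measured. The let-7c gene in its span, *Mirlet7c-1*, had 3 and 14 counts in GFP, 3 and 9 in YAP6SA and 16 and 29 in YAP5SA. It did not pass the filter on low counts and was not tested.

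Of 24 listed let-7 target genes, 21 of which held a seed match by the search above, 8 were higher and 1 lower in YAP5SA against GFP. That is 33.3% higher, beside 12.8% of all genes tested, with a median log2 fold change of 0.49 beside 0.00. The 3 with the largest change were *Thbs1* (3.62, FDR 0.0124), a matrix glycoprotein, *Rrm2* (2.72, FDR 0.000826), a subunit of the ribonucleotide reductase that makes DNA precursors, and *E2f2* (2.02, FDR 0.0115), a cell cycle transcription factor. *Insr*, the insulin receptor, was the 1 that fell (-0.70, FDR 0.0147), named here after its value was seen. *Thbs1* was uneven between hearts, with 227 and 31 counts in GFP and 489 and 1941 in YAP5SA. Against YAP6SA, 7 were higher in YAP5SA and 1 lower, where 9% and 5.68% of all genes tested passed. The largest changes were those of *Thbs1* (2.54, FDR 0.0498), *Rrm2* (2.31, FDR 0.00213) and *Myc* (1.72, FDR 0.0122). For YAP6SA against GFP, *Irs2*, an adaptor of insulin signaling, was the 1 gene called (1.64, FDR 0.0424). It was as high in YAP5SA, at 1.66 against GFP (FDR 0.00105) and 0.02 against YAP6SA (FDR 0.964). Its counts were 390 and 199 in GFP, 1548 and 525 in YAP6SA, thus uneven between hearts, and 931 and 762 in YAP5SA. *Thbs1* was also called higher in YAP6SA against GFP with no filter and in the fit of 4 libraries.

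Of 9 tested mRNAs known to be bound by IGF2BP proteins, 3 were higher and 1 lower in YAP5SA against GFP, where 12.8% and 9.18% of all genes tested passed. *Cd44*, a cell surface receptor for hyaluronan, rose (2.02, FDR 0.00473), as did *Actb*, the beta-actin mRNA (0.86, FDR 0.0161), and *Ccnd3*, a G1 cyclin (0.67, FDR 0.0317). *Ccng1*, a p53-induced cyclin, fell (-0.72, FDR 0.0200). The list's median log2 fold change was 0.46, beside 0.00 over all genes tested. For YAP6SA against GFP 0 passed, beside 0.045% of all genes tested. At an unadjusted p under 0.05 there was 1 of the 9, and the likelihood ratio test, DESeq2 and limma-voom called 0. *Actb* was called higher there with no filter, in the fit of 4 libraries and without either YAP5SA replicate. Against YAP6SA, *Cd44* was higher (1.72, FDR 0.0122) and *Ccng1* lower (-0.66, FDR 0.0365).

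The m6A enzymes and readers and the granule partners of IGF2BP proteins mostly did not pass. Of 18 such genes tested, 0 passed for YAP5SA or YAP6SA against GFP, where 22% and 0.045% of all genes tested passed in either direction. At an unadjusted p under 0.05 there were 2 and 0 of the 18, and the likelihood ratio test, DESeq2 and limma-voom called 0 and 0. *Pabpc1*, the poly-A binding protein, was the 1 gene higher in YAP5SA against YAP6SA (0.56, FDR 0.0400), as were 9% of all genes tested. Of 10 other high mobility group genes, 3 were higher in YAP5SA against GFP (30% beside 12.8% of all genes tested), which were *Hmgn3* (1.06, FDR 0.00659), *Hmgb1* (0.94, FDR 0.00385) and *Hmgb2* (0.90, FDR 0.0143). *Hmgb1* and *Hmgb2* encode abundant DNA-bending chromatin proteins and *Hmgn3* a nucleosome-binding one. *Hmgb2* was also higher against YAP6SA (1.02, FDR 0.0114), and 0 of the 10 passed for YAP6SA against GFP, with 2 at an unadjusted p under 0.05 and 0 by the likelihood ratio test, DESeq2 and limma-voom.

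Other genes known as oncofetal were mostly low. *Igf2*, the fetal growth factor whose leader first gave the IGF2BP proteins their name, had at most 5 counts in a library, *Afp* at most 2 and *Peg10* at most 4, and these were not tested. *Gpc3*, a heparan sulfate proteoglycan of fetal tissue and liver tumors, was the 1 of 3 tested that passed. It was higher in YAP5SA against GFP (1.95, FDR 0.0386), as were 12.8% of all genes tested. Its counts were 20 and 18 in GFP, 53 and 17 in YAP6SA and 49 and 94 in YAP5SA. The others tested, *Sall4* (-0.85, FDR 0.177) and *Plag1* (-0.21, FDR 0.435), had negative values and did not pass. The median log2 fold change of the 3 was -0.21, beside 0.00 over all genes tested. *Plag1* was not low, at means of 33.7, 36.1 and 29.1 CPM in GFP, YAP6SA and YAP5SA. *H19*, a fetal non-coding RNA, stood at 41.4 ± 10.7 CPM for GFP, at 50.1 ± 29.6 for YAP6SA and at 44.7 ± 8.05 for YAP5SA (SD, n = 2 each).

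**Figure D4:**
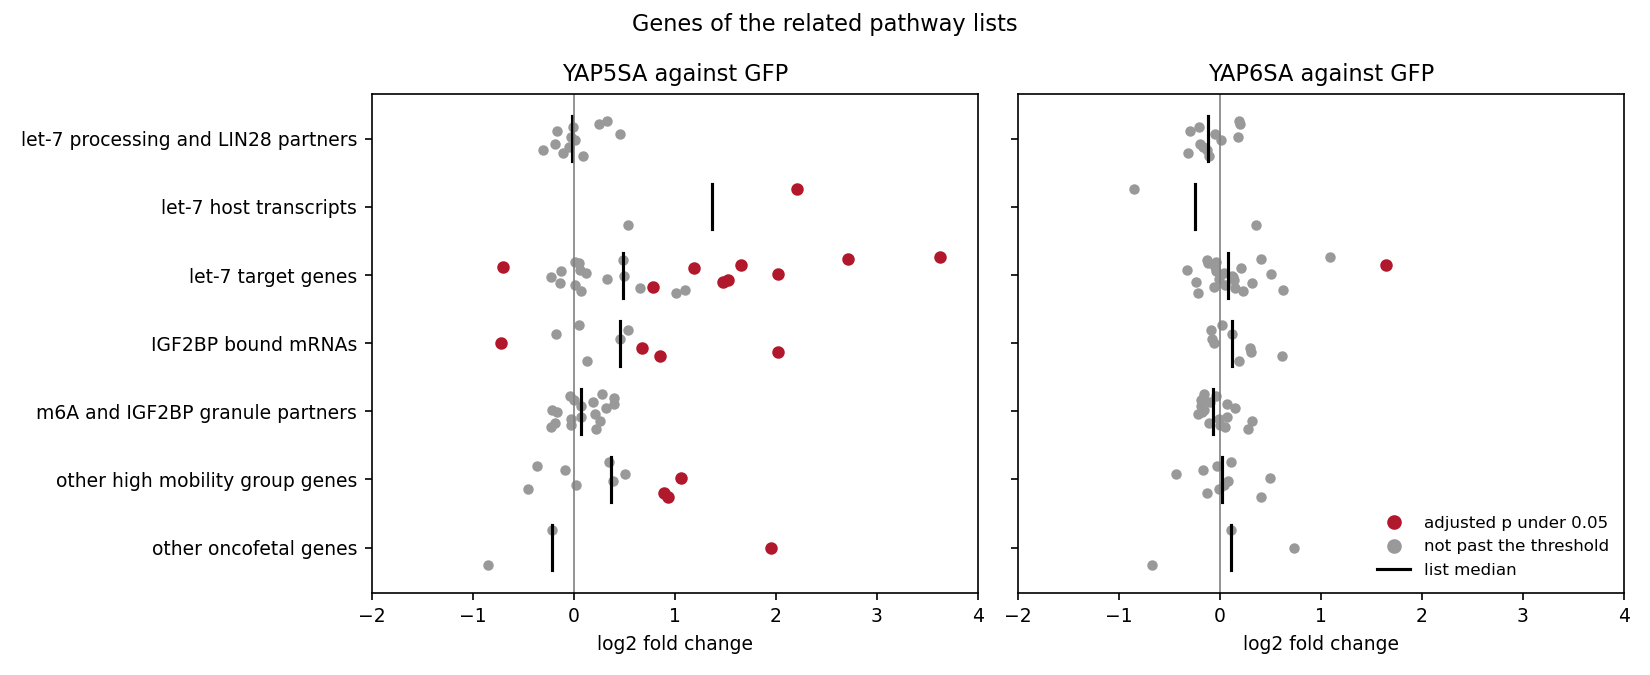
log2 fold change of the tested genes of each pathway list in YAP5SA against GFP and YAP6SA against GFP, with 1 point per gene, genes past the threshold in red and a black line at the median of each list. The red genes are mainly let-7 targets (9 of 24 for YAP5SA), IGF2BP-bound mRNAs (4 of 9) and high mobility group genes (3 of 10), and for YAP6SA *Irs2* is the 1 red gene.

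Over all these lists 16 genes were higher and 2 lower for YAP5SA against GFP, 1 was higher and 0 lower for YAP6SA against GFP, and 11 were higher and 2 lower for YAP5SA against YAP6SA. As shares of the 78 tested genes, 20.5% were higher in the first comparison and 14.1% in the third, beside 12.8% and 9% of all genes tested. Of all genes tested 9.18% and 5.68% were lower in these. Single libraries moved these totals. The 18 genes for YAP5SA against GFP became 5 without GFP replicate 2, 11 without YAP5SA replicate 2 and 32 without YAP5SA replicate 1. The 13 for YAP5SA against YAP6SA became 2 without YAP6SA replicate 2, 8 without YAP6SA replicate 1, 6 without YAP5SA replicate 2 and 25 without YAP5SA replicate 1. The 1 for YAP6SA against GFP became 0 without GFP replicate 1 or YAP6SA replicate 1 and 4 without either YAP5SA replicate. With no term for batch, the totals were 17, 0 and 6. *Igf2bp1* was called for YAP5SA against GFP and against YAP6SA in each of these fits.

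The samples were checked for the cells they hold, and in bulk RNA fewer cells of a type and less RNA per cell cannot be told apart. CM markers summed to 49370 and 66310 CPM for GFP, to 47170 and 60680 for YAP6SA, and to 41450 and 30230 for YAP5SA, and 2 of 8 (*Pln* and *Ryr2*) were lower in YAP5SA against GFP. Epicardial markers summed to 190 and 337 CPM in YAP5SA, where *Igf2bp1* was high, and to 72.5 to 82.7 in GFP and 65.1 to 95.5 in YAP6SA. Of that list 3 of 6 were higher in YAP5SA against GFP, *Wt1*, *Tbx18* and *Krt19*, beside 12.8% of all genes tested. *Upk3b*, *Upk1b* and *Msln* did not pass. Of these, *Upk3b* lay above GFP without overlap (9.11 and 7.71 against 5.61 and 4.62 CPM), as did 31.2% of all genes tested. *Wt1* had 13.7 and 13.5 CPM with GFP, 23.5 and 14.5 with YAP6SA, and 92.5 and 154 with YAP5SA. Skeletal myoblast markers summed to 0.262 and 0.326 CPM in GFP, 0 and 0.483 in YAP6SA and 1.52 and 3.18 in YAP5SA. *Pax7*, *Myod1* and *Pax3* were at 0 in all 6 libraries. *Myog* was at 0 in the GFP and YAP6SA libraries and at 1.25 and 2.90 CPM in YAP5SA. No gene of this list was expressed enough to test. Macrophage markers summed to 57.3 to 73.8 CPM in GFP, 64.2 to 87.9 in YAP6SA and 75.2 to 106 in YAP5SA. The YAP6SA sums overlapped those of both other groups. Of 7 macrophage genes tested, *Lyz2* was the 1 higher in YAP5SA against GFP (FDR 0.00611), as were 12.8% of all genes tested. Mural markers were lowest in YAP5SA without overlap, at 335 and 427 CPM, beside 496 and 566 in GFP and 564 and 586 in YAP6SA. Among all single genes tested, 29.8% lay lower without overlap in YAP5SA than in GFP and 29% lower than in YAP6SA. Of 6 mural genes, *Abcc9*, the highest of the list, was the 1 that passed as lower in YAP5SA against GFP (FDR 0.0287). It stood at 271 and 386 CPM in GFP, 310 and 372 in YAP6SA and 215 and 155 in YAP5SA. This 1 gene therefore weighs heavily in the mural sum. Fibroblast and endothelial sums overlapped between the groups, and erythroid sums ran from 24.7 to 63.8 CPM over the 6 libraries. The part of the epicardial, macrophage, mural, skeletal myoblast and CM markers in the *Igf2bp1* result was not tested.

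Promoters of RefSeq, from 250 bases before to 50 bases after a gene's start, were found for 6 of the 7 genes and not for *Igf2bp1*. None of the 7 windows held GGAATG (a TEAD motif, either strand, in 14.7% of 32851 promoters) or TGANTCA (AP-1, in 7.81%), which says only that these letters are absent from these windows.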

How the data were processed

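The deposited file held raw read counts per gene for 6 libraries. The authors aligned the reads with STAR to mm10 and the Ensembl 94 annotation, and the deposited counts were neither scaled nor filtered. Reads outside genes (9.43% to 9.84% of a library), ambiguous between genes (5.79% to 6.31%), at several places (2.90% to 4.19%) or unmapped (3.03% to 3.63%) were kept apart and took no part in library sizes. The chi-square per degree of freedom between the replicates was 19.0 for GFP, 21.3 and 29.9 for the others, so that none was a copy.

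Genes were tested where the median log2 CPM was above 1 in at least 1 group (13323 genes). The fit used R 4.3.3 and edgeR 4.0.16 with TMM scaling, the quasi-likelihood test, and batch and group terms over all 6 libraries, at a Benjamini-Hochberg adjusted p under 0.05. Intervals are those of the fit. RPKM used the summed exon length in GENCODE M21 (GRCm38). The script was tested on simulated data. The replicate number is the batch in the labels, and same-batch libraries deviated together (correlations 0.394, 0.107 and 0.181 between group pairs).

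The members and lists were chosen with earlier results of these data known. Named genes were the members, all genes past the threshold in a list (or the 3 largest where more than 5 passed), the 3 genes most like a called member, genes sharing reads with a member, and markers. Alternatives were scaling by RLE or the upper quartile, dropping the filter or asking for 10 counts in each library, the likelihood ratio test, DESeq2 1.42.0, limma-voom 3.58.1, no replicate block, fits of 4 libraries, thresholds of 0.01 and 0.1, and each library left out.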

Additional observations from a re-analysis of the deposited data

How the results depend on the processing

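*Igf2bp1* was called in all 9 other fits and all 6 fits that left out a library for YAP5SA against GFP (log2 fold change 4.86 to 5.07 with a library left out) and for YAP5SA against YAP6SA (4.27 to 4.61), and in none for YAP6SA against GFP. No other member was called in any fit, and no scaling moved the median of all genes by over 0.1 on the log2 scale. With no replicate block the number of members called was 1, 0 and 1, as with it. Leaving out a library changed the direction of some members that were not called. The log2 fold change then ran from -0.040 to 0.14 for *Igf2bp3* and from -1.26 to 0.20 for *Lin28b* in YAP5SA against GFP, from -0.65 to 0.80 for *Lin28b* and from -1.03 to 0.41 for *Hmga1* in YAP6SA against GFP, and from -0.041 to 0.14 for *Igf2bp2* in YAP5SA against YAP6SA. A group left with 1 library was assumed to vary like the others.

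The number of pathway genes called moved more, and the cause was not tested. For YAP5SA against GFP it was 18, 7 at a threshold of 0.01, and 5 to 32 with a library left out. For YAP6SA against GFP it was 1, 4 with no filter, 2 by the likelihood ratio test, 2 by DESeq2, 0 with no replicate block, 4 in the fit of 4 libraries, 0 at a threshold of 0.01, and 0 to 4 with a library left out. For YAP5SA against YAP6SA it was 13, 6 with no replicate block, 3 at a threshold of 0.01, 20 at a threshold of 0.1, and 2 to 25 with a library left out. At this depth *Lin28a* and *Hmga2* were at or near the limit that 0 counts allows.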
